A study of Mus musculus with 8 samples.

Results

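The Fanconi anaemia genes described here are Fanca, Fancb, Fancc, Fancd2, Fance, Fancf, Fancg, Fanci, Fancl and Fancm. They were chosen by symbol: a row of the deposited expression tables belonged to the set if its gene name, divided at commas, held one of these symbols. All 10 were found in 1 row each, among 24281 named loci in the female table and 23944 in the male table, and all 10 passed the filter of a mean of at least 1 FPKM that left 11529 female and 12279 male genes for testing.

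The Fanconi anaemia pathway repairs DNA interstrand crosslinks, lesions that tie both strands of the double helix together and block replication forks. In a nuclear core complex, FANCA and FANCG form one module, FANCB and FANCL another, and FANCC, FANCE and FANCF a further one, while FANCM brings the complex to DNA. FANCL is the ubiquitin ligase that, with the conjugating enzyme UBE2T, attaches ubiquitin to the FANCD2 and FANCI pair, and mice that lack genes of this pathway have few germ cells.

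RNA-Seq was carried out on E15.5 mouse germ cells that had been sorted by Oct4-EGFP, a fluorescent reporter driven by the Oct4 promoter, from embryos with and without Snf5 in the germline. Snf5, listed in the tables as Smarcb1, encodes a central component of SWI/SNF, a machine that moves nucleosomes. Of the 8 libraries, 2 were controls and 2 were Snf5 CKO in each sex. Their values are FPKM, read fragments scaled to transcript length and to the mapped fragments of the library, which can be compared between genes of one library.

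The Snf5 CKO germ cells carried the genotype Snf5 fx/Δ + TNAP-Cre, in which the Cre recombinase is expressed from the Alpl locus and removes the first exon of the floxed allele. The controls were a mixture of germ cells from Snf5 fx/+ embryos, Snf5 fx/Δ embryos and Snf5 fx/+ embryos with TNAP-Cre, so some of them also lacked 1 copy of Snf5 or also carried Cre. All embryos carried Oct4-EGFP, and recombination by this Cre is incomplete. The strain background in the labels is C57BL/6, while the methods of the study describe a mixed background. Most libraries pooled the cells of several embryos, whose number differed between libraries, and a male Snf5 CKO library came from a single embryo. The study calls the libraries of a group biological duplicates, while the labels name no embryo or litter for any of them, so the p-values measure the spread between these samples.

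Smarcb1 was at 23.4 and 22.3 FPKM in the female controls and at 4.24 and 2.47 FPKM in the female Snf5 CKO libraries (log2 fold change -2.48, adjusted p = 0.000273). In males it was at 141 and 167 FPKM in the controls and at 8.73 and 10.1 FPKM in Snf5 CKO (a log2 fold change of -3.90, adjusted p = 0.00213). The germ cell markers Ddx4 and Dazl were at or above 203 FPKM in all 8 libraries, while Pou5f1, the gene whose promoter drives the reporter used for the sort, was at 8.63 and 16.7 FPKM in the female controls and at 295 and 333 FPKM in female Snf5 CKO. Dppa3, Sall4, Kit and Dnd1 had means of 51.2, 6.68, 12.7 and 6.88 FPKM in the female controls. Their means in female Snf5 CKO were 1519, 106, 55.3 and 160 FPKM. Mael fell from a control mean of 650 to 172 FPKM in females and from 998 to 128 FPKM in males. In males Dnd1 fell from 599 to 172 FPKM, and Kit rose from 8.34 to 30.9 FPKM. The summed level of 6 meiotic oocyte markers was 3960 and 3710 FPKM in the female controls and 676 and 802 FPKM in female Snf5 CKO. That of 5 prospermatogonium markers was 552 and 589 FPKM in the male controls and 39.3 and 73.6 FPKM in male Snf5 CKO. All 6 Sertoli cell markers were higher in male Snf5 CKO, with a sum of 516 and 834 FPKM against 120 and 98.1 FPKM in the controls. In females the sum was 2.04 and 3.36 FPKM in the controls and 7.21 and 9.16 FPKM in Snf5 CKO. Dhh and Cst9 were listed at 0 in both female controls. Amhr2, the only Sertoli marker tested in females, was higher in Snf5 CKO (log2 fold change 1.40, limma adjusted p = 0.00131). The sum of 5 pre-granulosa markers was 4.24 and 6.61 FPKM in the female controls and 18.0 and 15.3 FPKM in female Snf5 CKO, and that of 5 Leydig cell markers was 85.7 and 58.2 FPKM in the male controls and 19.2 and 15.1 FPKM in male Snf5 CKO. Some libraries stood apart: loci without a gene name held 9.94% of all FPKM in female Snf5 CKO replicate 1 and between 28.2% and 36.7% in the other 3 female libraries, and in males 6.56% and 5.46% in replicate 1 (control and Snf5 CKO) and 42.1% and 35.4% in replicate 2. The part of this share in the results was not tested, and values without a library are given beside the members where it changed a call or a sign.

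Positions are those of GENCODE M21 on GRCm38, the assembly that mm10 also denotes. Exon numbers are those of a gene's longest transcript. The deposited values carry loci that differ from these spans and are wider for some members, such as chr7:51857006-51995028 for Fancf in females. The Fancc locus there was chr13:62964893-63431745. The part of other genes at these loci in the values was not tested. Upstream of the transcript start, 250 bases were read from RefSeq on GRCm38.p6 for the 9 members with an entry; Fancd2 had none. The stretches next to the start of Fanca, Fancb and Fancc are printed because these 3 genes had fold changes nearest to or past 2-fold in females or males with an adjusted p under 0.05, and their capitals mark CCAAT boxes on either strand (ATTGG where the box lies on the other strand).
Fanca, minus strand, chr8:123318577-123318826: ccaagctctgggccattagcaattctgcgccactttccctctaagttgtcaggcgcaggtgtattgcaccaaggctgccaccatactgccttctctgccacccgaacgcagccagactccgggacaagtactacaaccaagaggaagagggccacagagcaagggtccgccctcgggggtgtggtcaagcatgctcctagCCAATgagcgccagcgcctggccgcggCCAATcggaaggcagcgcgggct
Fancb, plus strand, chrX:164980382-164980591: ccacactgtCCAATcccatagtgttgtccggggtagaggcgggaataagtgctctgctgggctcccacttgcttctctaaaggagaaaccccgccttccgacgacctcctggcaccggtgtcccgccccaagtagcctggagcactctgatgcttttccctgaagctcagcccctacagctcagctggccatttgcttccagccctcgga
Fancc, minus strand, chr13:63431746-63431995: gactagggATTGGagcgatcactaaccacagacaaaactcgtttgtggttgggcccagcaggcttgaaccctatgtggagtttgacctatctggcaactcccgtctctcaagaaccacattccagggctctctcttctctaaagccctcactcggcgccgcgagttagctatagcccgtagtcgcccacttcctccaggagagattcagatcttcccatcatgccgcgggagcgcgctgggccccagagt

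The Fanca boxes began 50 and 23 bases before its start, the Fancb box 201 bases and the Fancc box 242 bases before theirs. CCAAT was present on either strand in 6 of the 9 upstream windows of members (Fanca, Fancb, Fancc, Fance, Fancf and Fancm), against 33.8% of 32851 RefSeq promoter windows of the same length. An E2F motif, spelled TTTCCCGC, TTTCGCGC, TTTGCCGC or TTTGGCGC, was present in Fancg, 52 bases before the start, and in 1.86% of all windows. The letters CNCCTCAG, a motif of the type bound by STRA8, were present in Fancf 56 bases before the start and in 6.42% of all windows. The E-box CACGTG (6.02% of all windows) and the cyclic AMP response element TGACGTCA (1.55%) were in no window of a member. These matches are descriptions of letters: no binding was measured. No motif overlapped another in a member's window. Distances count from the RefSeq starts, and those of Fancc, Fance, Fancg, Fanci and Fancl lie inside the GENCODE spans given below. The windows of Fancc, Fanci and Fancl lie wholly inside these spans, so by that annotation they are not upstream of the gene.

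The members were expressed at low to moderate levels in control germ cells, and the order of the genes differed between the sexes. In female controls the mean level ran from 27.8 ± 4.17 FPKM (SD, n = 2) for Fance through Fanci, Fancc, Fancd2 and Fancg at 20.8 ± 2.46 FPKM (SD, n = 2), and the ranges of neighbours among these 5 genes overlapped. Below them stood Fancl, Fancf, Fanca, Fancb and, lowest, Fancm at 3.98 ± 1.03 FPKM (SD, n = 2), and each of these lay below its upper neighbour in both libraries. In male controls Fancd2 was the highest member at 66.1 ± 25.9 FPKM (SD, n = 2), above the next gene, Fance, in both libraries. Fancm was again the lowest at 4.24 ± 1.76 FPKM (SD, n = 2), and its range overlapped that of Fanca. In Snf5 CKO germ cells Fancd2 had the highest mean in both sexes, 27.9 ± 8.46 FPKM (SD, n = 2) in females and 31.2 ± 14.7 FPKM (SD, n = 2) in males, with ranges that overlapped those of Fanci.

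**Figure D1:**
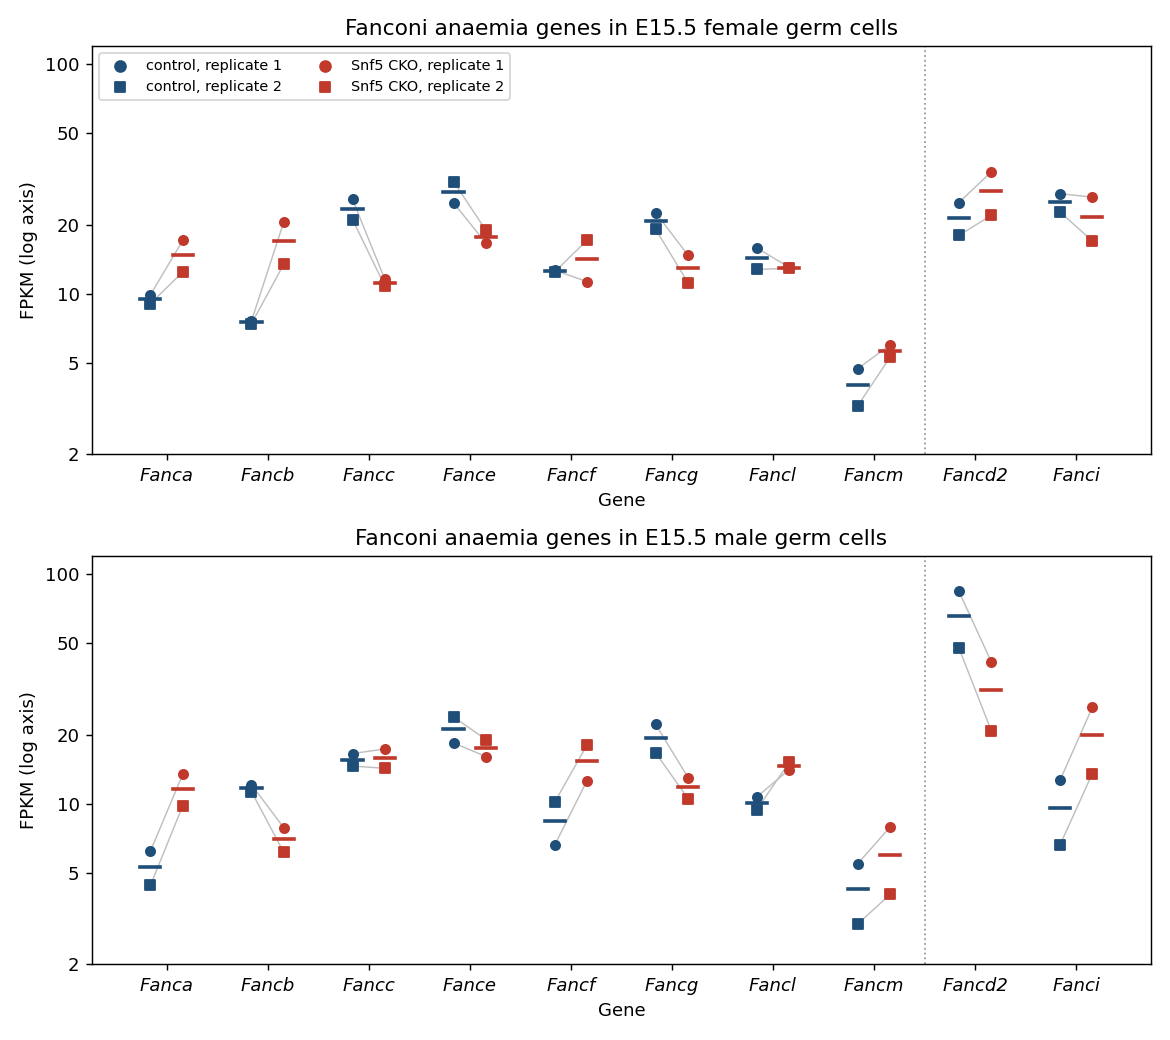
FPKM on a log axis (y) of each of the 10 Fanconi anaemia genes (x) in the 4 female libraries (top) and the 4 male libraries (bottom); blue points are control, red points are Snf5 CKO, circles are replicate 1, squares are replicate 2, short bars are group means and grey lines join libraries of the same replicate number. The genes right of the dotted line are the ubiquitylated pair, and Fancd2 in male controls stands at 84.4 and 47.8 FPKM, above every other point of that panel's controls.

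The comparison of Snf5 CKO with control within a sex asks which genes differ between them. The study reports impaired entry of Snf5 CKO germ cells into meiosis (female) and mitotic arrest (male). It places the expression profiles of Snf5 CKO at an earlier stage than those of the controls. The part of this difference in stage in the values of the members was not tested. Of the 10 members in females, 3 fell (Fancc, Fance and Fancg) and 2 rose (Fanca and Fancb) at an adjusted p under 0.05 and any size, where 34.6% of all tested genes fell and 26.9% rose. With the further demand of a 2-fold change, 1 member was higher (Fancb) and 0 were lower, against 17.3% and 21.6% of all tested genes; 5 members had an unadjusted p under 0.05. In males 1 member fell (Fancb) and 1 rose (Fanca) at an adjusted p under 0.05, against 25.3% and 21.0% of all tested genes. At 2-fold, Fanca was higher and 0 members were lower in males, against 14.4% and 17.4%, and 5 members had an unadjusted p under 0.05. For these and later counts at an unadjusted p under 0.05, the share of all tested genes was not computed. It cannot be lower than the share at an adjusted p under 0.05. A fit on linear FPKM and libraries rescaled to a common sum ended the calls of Fanca, Fance and Fancg in females and both male calls (adjusted p between 0.0793 and 0.134 in the linear fit and between 0.0766 and 0.195 with the common sum). Without the filter the adjusted p was 0.0839 for Fanca and 0.0534 for Fancg in females and 0.0618 for Fancb in males, and with median-of-ratios rescaling it was 0.0783 for Fance and 0.0513 for Fancg in females and 0.0868 for Fancb in males. The median log2 fold change of the members was 0.01 in females and 0.21 in males, and that of all tested genes was -0.13 and -0.07. Fold changes were computed from log2(FPKM + 1) and so understate the change of genes with low values.

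Libraries of the same number shared a style of raw file name in the labels, and in males the column headers carry exp with that number. A fit with the replicate number as a block changed the counts of males. With the block 4 members fell (Fancb, Fancd2, Fance and Fancg) and 5 rose (Fanca, Fancf, Fanci, Fancl and Fancm) in males at an adjusted p under 0.05, where 41.2% of all tested genes fell and 35.1% rose. Fancd2 then also passed 2-fold, with 18.0% of all tested genes lower by that rule. In females the block left 3 members lower and 4 higher (Fanca, Fancb, Fancd2 and Fancm), with 42.6% and 34.1% of all tested genes. These shares of the 10 members were near those of all tested genes and are no result about the members as a set.

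**Figure D2:**
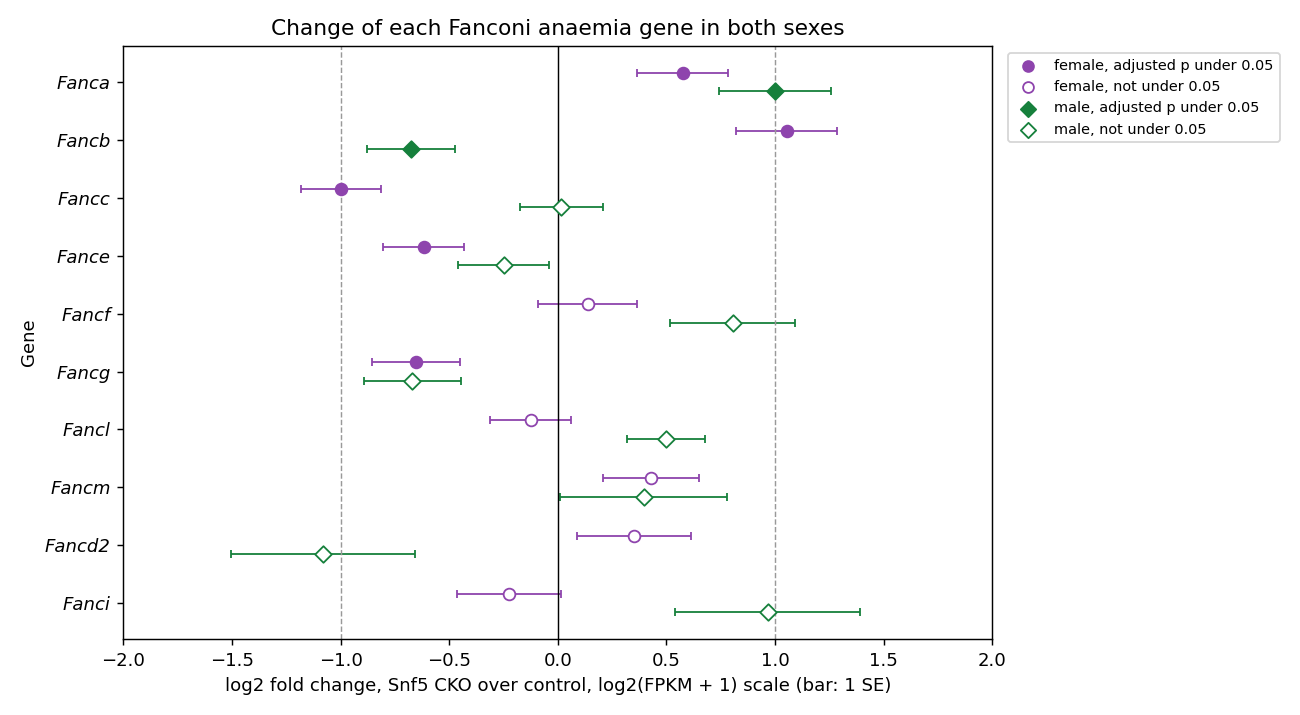
Log2 fold change of Snf5 CKO over control on the log2(FPKM + 1) scale (x) for each Fanconi anaemia gene (y) in females (purple circles) and males (green diamonds); bars are 1 standard error from limma, filled symbols have an adjusted p under 0.05 without the replicate block, and dashed lines mark 2-fold. Fanca lies right of 0 in both sexes, Fance and Fancg lie left of 0 in both, and Fancb lies right in females (1.05) and left in males (-0.67).

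Fanca (chr8:123268300-123318576, minus strand, 43 exons) encodes a subunit of the FANCA and FANCG module. In females it was at 9.87 and 9.04 FPKM in the controls and at 17.1 and 12.4 FPKM in Snf5 CKO. The male libraries had 6.22 and 4.41 FPKM in the controls and 13.4 and 9.81 FPKM in Snf5 CKO. Every Snf5 CKO library was thus above every control library of its sex. The log2 fold change was 0.58 in females (standard error, SE, 0.21, adjusted p = 0.0486) and 1.0 in males (SE 0.26, adjusted p = 0.0288). The female call was lost with a filter at 5 FPKM (adjusted p = 0.0509), with eBayes run without trend (0.0512), and without control replicate 1 (0.0802), control replicate 2 (0.138) or Snf5 CKO replicate 1 (0.322, log2 fold change 0.36), and the male call without control replicate 2 (0.136) or Snf5 CKO replicate 1 (0.104). The male change lay on the 2-fold threshold itself, and with libraries rescaled to a common sum it was 0.84 (adjusted p = 0.195). Fanca shares 552 exon bases, 8.62% of its own, with Zfp276 on the other strand. Zfp276 was at 7.47 and 5.51 FPKM in the female controls and at 3.28 and 3.44 FPKM in female Snf5 CKO. In males it was at 2.72 and 2.72 FPKM in the controls and at 2.92 and 2.73 FPKM in Snf5 CKO. The part of this overlap in the level of Fanca was not tested.

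Fancg (chr4:43002343-43010506, minus strand, 14 exons), which encodes its partner in that module, went the other way. It was at 22.5 and 19.0 FPKM in the female controls and at 14.7 and 11.1 FPKM in female Snf5 CKO (log2 difference -0.65 ± 0.20 SE, adjusted p = 0.0287). Male controls had 22.2 and 16.7 FPKM and male Snf5 CKO had 13.0 and 10.5 FPKM (log2 difference -0.67 ± 0.22 SE, adjusted p = 0.0617, and 0.00138 with the replicate block). The groups did not overlap in either sex. Without control replicate 1 or Snf5 CKO replicate 2 the female adjusted p was 0.125 or 0.202.

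Within each library, the level of Fanca was therefore set against that of Fancg, a ratio that no scaling of the library can alter. This pair and the others below were picked as partners in a module or complex after the values had been seen, so their ratios carry no test. The ratio of Fanca to Fancg was 0.438 and 0.475 in the female controls and 1.16 and 1.11 in female Snf5 CKO. For males it was 0.280 and 0.265 in controls and 1.03 and 0.930 in Snf5 CKO libraries. In controls of both sexes Fancg exceeded Fanca, and in Snf5 CKO they stood at similar levels.

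Fancb (chrX:164980592-164997272, plus strand, 9 exons) is the X-linked member and encodes a scaffold that holds FANCL in the core complex. In the female controls it was at 7.59 and 7.38 FPKM, and in female Snf5 CKO it was at 20.5 and 13.4 FPKM. Male controls had 12.1 and 11.3 FPKM, and male Snf5 CKO had 7.87 and 6.14 FPKM. It was thus above the controls in both female Snf5 CKO libraries and below them in both male ones. The log2 fold change was 1.05 in females (SE 0.23, adjusted p = 0.00731), where the mean was 2.27 times that of the controls, and -0.67 in males (SE 0.20, adjusted p = 0.0454). Each sex was fitted alone, from tables normalized separately, and the difference between the sexes was not tested. The female change was 0.77 without Snf5 CKO replicate 1, under 2-fold, and its adjusted p was 0.0623 in a fit on linear FPKM. The male call was lost when any 1 library was left out: the adjusted p was 0.212 and 0.156 without control replicates 1 and 2, and 0.0742 and 0.249 without Snf5 CKO replicates 1 and 2.

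Fancl (chr11:26386135-26471876, plus strand, 14 exons) encodes the ligase subunit. Female controls had 15.8 and 12.7 FPKM and female Snf5 CKO had 13.0 and 12.9 FPKM, within the range of the controls (log2 fold change -0.12 ± 0.19 SE, adjusted p = 0.581). Its sign turned without control replicate 1 (0.02) and under median-of-ratios rescaling (0.03). In males it was at 10.7 and 9.43 FPKM in the controls and at 14.1 and 15.1 FPKM in Snf5 CKO, with no overlap (log2 fold change 0.50 ± 0.18 SE, adjusted p = 0.0751, 0.0373 under median-of-ratios rescaling and 0.00919 with the replicate block). The gene shares 462 exon bases, 17.0% of its own, with Vrk2 on the other strand. The reads were made with a kit that does not keep the strand, so reads there cannot be assigned, and Vrk2 itself was at 2.56 and 3.63 FPKM in the male controls and at 13.2 and 15.9 FPKM in male Snf5 CKO. The part of this overlap in the level of Fancl was not tested.

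The ratio of Fancb to Fancl was 0.480 and 0.579 in the female controls and 1.58 and 1.04 in female Snf5 CKO. In the male controls it was 1.13 and 1.20, and in male Snf5 CKO it was 0.559 and 0.406. The groups did not overlap in either sex, and the ratio was higher in Snf5 CKO in females and lower in Snf5 CKO in males.

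Fancc (chr13:63285043-63497278, minus strand, 16 exons) encodes a subunit of the module that links the core complex to FANCD2. It was at 25.8 and 21.0 FPKM in the female controls and at 11.5 and 10.8 FPKM in female Snf5 CKO, which is 0.477 times the mean of the controls. The log2 fold change of -0.998 (SE 0.18, adjusted p = 0.00341) fell just short of the 2-fold rule, which it passed with a pseudocount of 0.1, without control replicate 2 or without Snf5 CKO replicate 1. Of all members in females it was the one whose adjusted p stayed under 0.05 in every alternative that was run, between 0.000458 and 0.0364. Male libraries had 16.6 and 14.6 FPKM in the controls and 17.3 and 14.3 FPKM in Snf5 CKO, with overlapping groups (log2 fold change 0.02 ± 0.19 SE, adjusted p = 0.953). The male value turned its sign with libraries rescaled to a common sum (-0.16) and without control replicate 2 (-0.07) or Snf5 CKO replicate 1 (-0.12).

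Fance (chr17:28313519-28326572, plus strand, 10 exons) encodes the subunit that contacts FANCD2 directly. It was at 24.9 and 30.8 FPKM in the female controls and at 16.6 and 18.9 FPKM in female Snf5 CKO, without overlap (log2 fold change -0.62 ± 0.19 SE, adjusted p = 0.0256). That call was lost without control replicate 2 (adjusted p = 0.144), Snf5 CKO replicate 1 (0.136) or Snf5 CKO replicate 2 (0.0573). In males it was at 18.4 and 23.9 FPKM in the controls and at 16.1 and 19.1 FPKM in Snf5 CKO, with overlapping groups (log2 fold change -0.25 ± 0.21 SE, adjusted p = 0.375, and 0.0394 with the replicate block).

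Fancf (chr7:51860577-51862267, minus strand) has a single exon and encodes an adaptor of the core complex. The female controls were at 12.6 and 12.4 FPKM, and the female Snf5 CKO libraries lay on both sides of them at 11.3 and 17.1 FPKM (log2 fold change 0.14 ± 0.23 SE, adjusted p = 0.615). Without Snf5 CKO replicate 2 the female value was -0.14. In males Fancf was at 6.60 and 10.2 FPKM in the controls and at 12.6 and 18.0 FPKM in Snf5 CKO, with no overlap (log2 fold change 0.81 ± 0.29 SE, adjusted p = 0.0731). In males the adjusted p was 0.000936 with the replicate block, 0.0462 under median-of-ratios rescaling and 0.0490 without Snf5 CKO replicate 1, but 0.308 with the common sum. The male value was 0.53 (adjusted p = 0.302) without control replicate 1 and 0.56 (0.261) without Snf5 CKO replicate 2.

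The ratio of Fancc to Fance was 1.04 and 0.683 in the female controls and 0.696 and 0.572 in female Snf5 CKO. For males it was 0.899 and 0.611 in controls and 1.08 and 0.749 in Snf5 CKO libraries. These ratios overlapped between the groups in both sexes, unlike those of the other module pairs. Within a replicate number the Fancc to Fance ratio was lower in Snf5 CKO in females and higher in Snf5 CKO in males.

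Fancm (chr12:65075603-65132058, plus strand, 23 exons) encodes the DNA translocase that anchors the complex, and it was the member with the lowest mean in all 4 groups. It was at 4.71 and 3.25 FPKM in the female controls and at 5.98 and 5.29 FPKM in female Snf5 CKO (log2 fold change 0.43 ± 0.22 SE, adjusted p = 0.130, 0.0474 under median-of-ratios rescaling and 0.0442 with the replicate block). The male controls had 5.49 and 3.0 FPKM and male Snf5 CKO had 7.94 and 4.03 FPKM, with overlapping groups (log2 fold change 0.40 ± 0.38 SE, adjusted p = 0.436, and 0.0336 with the replicate block). In each sex the Snf5 CKO library was above the control library of the same number, by 1.27 and 1.63 times in females and by 1.45 and 1.34 times in males. Without Snf5 CKO replicate 1 the male log2 fold change was -0.02. Fancm shares 572 exon bases, 7.36% of its own, with Gm47870 on the other strand, for which no value was found.

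Fancd2 (chr6:113531682-113597017, plus strand, 44 exons) and Fanci (chr7:79391929-79450264, plus strand, 38 exons) encode the pair of proteins that the core complex ubiquitylates and that then clamps onto DNA. In females Fancd2 was at 24.9 and 17.9 FPKM in the controls and at 33.9 and 21.9 FPKM in Snf5 CKO, with overlapping groups (log2 fold change 0.35 ± 0.26 SE, adjusted p = 0.276, and 0.0218 with the replicate block). The female value was 0.049 (adjusted p = 0.899) without Snf5 CKO replicate 1 and 0.12 (0.732) without control replicate 2. In males it was at 84.4 and 47.8 FPKM in the controls and at 41.6 and 20.9 FPKM in Snf5 CKO, without overlap. Its male log2 fold change was -1.08 (SE 0.42, adjusted p = 0.0931). Replicate 1 exceeded replicate 2 by 1.76 times in the male controls and by 2.0 times in male Snf5 CKO, and within a replicate number the Snf5 CKO level was 0.493 and 0.436 times that of the control. With the replicate block the standard error was 0.07 and the adjusted p was 0.000129, and the adjusted p was also under 0.05 without control replicate 2 (0.0455), without Snf5 CKO replicate 1 (0.0137) and with libraries rescaled to a common sum (0.0428). The male value was -0.68 (adjusted p = 0.281) without control replicate 1 and -0.60 (0.266) without Snf5 CKO replicate 2.

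Fanci had the opposite pattern in males. It was at 12.6 and 6.62 FPKM in the male controls and at 26.3 and 13.5 FPKM in male Snf5 CKO, without overlap (log2 fold change 0.97 ± 0.42 SE, adjusted p = 0.121). Its replicates also differed by 1.91 and 1.95 times in control and Snf5 CKO, and within a replicate number the Snf5 CKO level was 2.08 and 2.04 times that of the control (adjusted p = 0.000400 with the replicate block, and 0.0256 without Snf5 CKO replicate 2). The male value was 0.51 (adjusted p = 0.351) without Snf5 CKO replicate 1 and 0.55 (0.376) without control replicate 2. In females it was at 27.2 and 22.7 FPKM in the controls and at 26.3 and 17.0 FPKM in Snf5 CKO, with overlapping groups (log2 fold change -0.22 ± 0.24 SE, adjusted p = 0.443), and the value was 0.08 without Snf5 CKO replicate 2. Fanci shares 665 exon bases, 13.4% of its own, with Polg on the other strand, and Polg was at 31.6 and 23.7 FPKM in the male controls and at 31.9 and 22.6 FPKM in male Snf5 CKO.

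The ratio of Fancd2 to Fanci within a library was 0.915 and 0.789 in the female controls, near parity. In the male controls it was 6.67 and 7.22. In female Snf5 CKO it was 1.29 in both libraries, and in male Snf5 CKO it was 1.58 and 1.54. The male controls thus stood apart from the other 3 groups, and the mean ratio was 4.45 times as high in male controls as in male Snf5 CKO. Fanci, the divisor, had a lower confidence bound of 0 in both male controls, and the difference between the sexes was not tested. Fancd2os, on the other strand, shares 256 exon bases with Fancd2, 4.64% of those of Fancd2, and Fancd2os did not exceed 3.31 FPKM in any library.

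**Figure D3:**
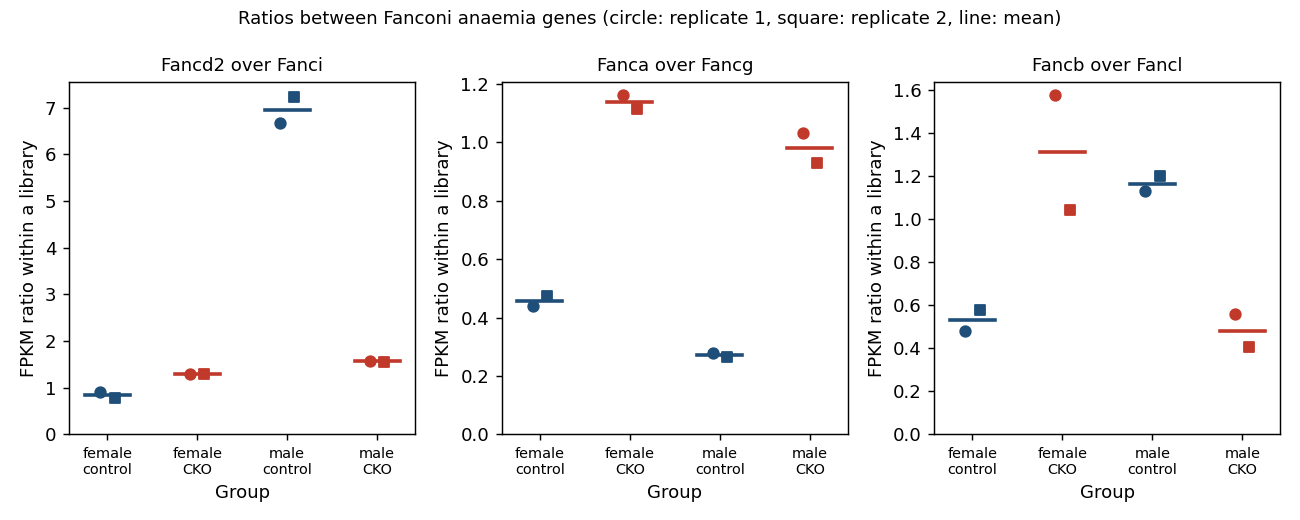
Ratio of FPKM between a pair of Fanconi anaemia genes within each library (y, linear from 0) in the 4 groups (x), for Fancd2 over Fanci (left), Fanca over Fancg (middle) and Fancb over Fancl (right); circles are replicate 1, squares replicate 2 and lines the mean of 2 libraries. The Fancd2 over Fanci ratio is 6.95 ± 0.391 (SD, n = 2) in male controls and lies between 0.789 and 1.58 in the other 3 groups.

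Of the other genes of the pathway, 29 were listed in 6 groups and all 29 were found and tested in both tables, 3 of them (Faap20, Faap24 and Faap100) under other symbols in the male table than in the female one. In females 4 were lower and 1 was higher by the 2-fold rule, where 21.6% and 17.3% of all tested genes were, and in males 4 were lower and 10 were higher, where 17.4% and 14.4% were. The median log2 fold change of the 29 was -0.52 in females and 0.23 in males. In females Brca2, which acts in repair by homologous recombination, was lower (-1.74), as were Ube2t (-1.50), the FANCM partner Faap24 (-1.09) and Rmi1 (-1.04), a subunit of the complex with the BLM helicase. Higher in females was Mus81 (1.82), a nuclease that cuts branched DNA. At any size 13 of the 29 fell and 3 rose in females (34.6% and 26.9% of all tested genes), and in males 5 fell and 11 rose (25.3% and 21.0%). With the replicate block 17 fell and 6 rose in females (42.6% and 34.1% of all tested genes), and in males 11 fell and 13 rose (41.2% and 35.1%).

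In males the lower partners were Faap100 (-1.79), which joins FANCB and FANCL in their module, the nuclease scaffold Slx4 (-1.44), Ube2t (-1.39) and Wdr48 (-1.30). The 8 largest increases were those of Mus81 (1.92), Cenpx (1.59), Usp1 (1.55), Cenps (1.35), Rmi2 (1.22), the translesion factor Mad2l2 (1.14), Faap24 (1.11) and Faap20 (1.11). CENPS and CENPX form a histone-fold pair that binds FANCM, and Usp1 encodes the protease that, with the WDR48 cofactor, removes ubiquitin from FANCD2 and FANCI. The split was 4 lower and 5 higher when male libraries were rescaled to a common sum, and in females it was 2 lower and 1 higher under median-of-ratios rescaling. Without Snf5 CKO replicate 1, 8 partners were lower in females.

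Ube2t was at 379 and 415 FPKM in the female controls and at 130 and 150 FPKM in female Snf5 CKO. It was at 184 and 240 FPKM in the male controls and at 69.7 and 91.4 FPKM in male Snf5 CKO. This conjugating enzyme was thus lower in each Snf5 CKO library than in every control library of its sex, and its level was above that of every member of the same library. Faap24 was at 23.0 and 24.2 FPKM in the female controls and at 10.1 and 11.1 FPKM in female Snf5 CKO, and at 2.36 and 2.63 FPKM in the male controls and 6.18 and 6.92 FPKM in male Snf5 CKO. Its groups did not overlap in either sex, and the direction was opposite, a difference that was not tested.

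Of the 8 homologous recombination partners, 6 fell and 0 rose at an adjusted p under 0.05 in females, by limma, where 34.6% of all tested genes fell and 26.9% rose, and 6 had an unadjusted p under 0.05. Brca2 was at 63.8 and 46.7 FPKM in the female controls and at 18.3 and 13.3 FPKM in female Snf5 CKO, and between 6.26 and 10.4 FPKM in the 4 male libraries.

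**Figure D4:**
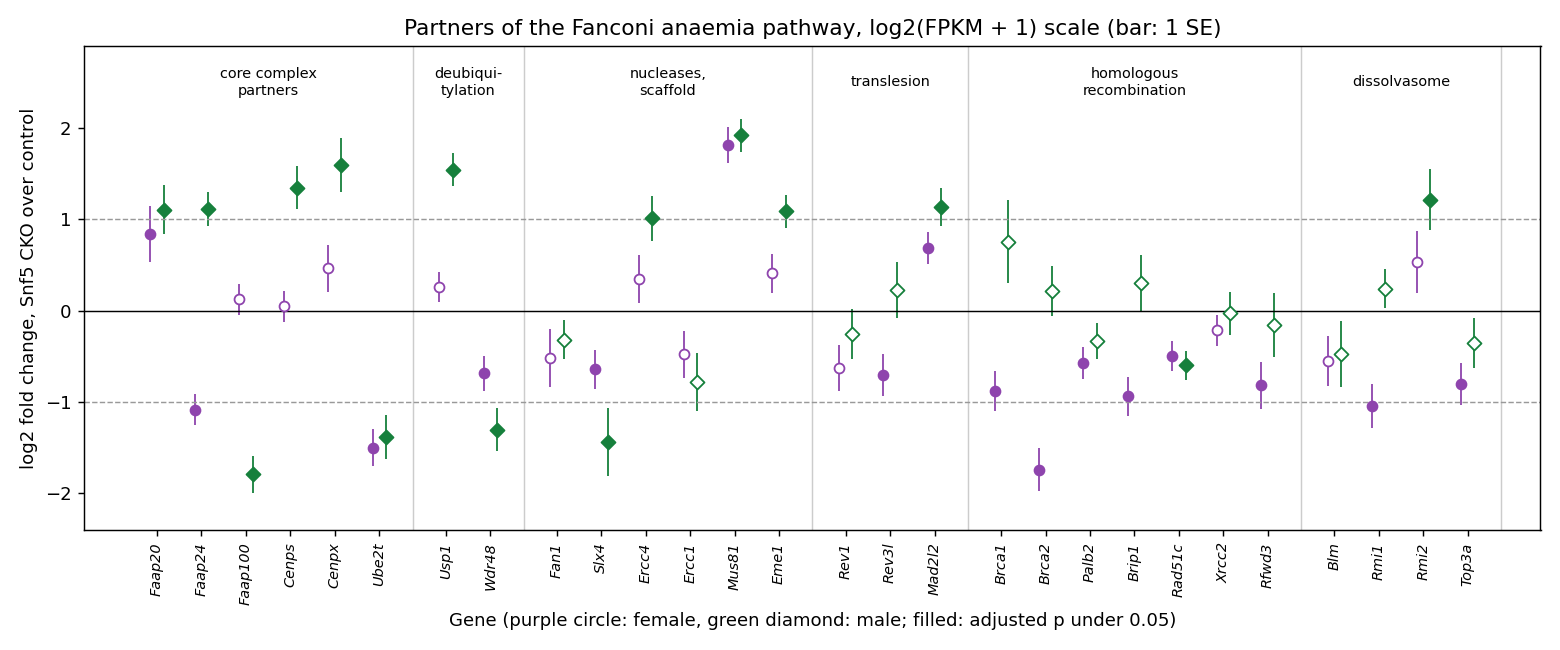
Log2 fold change of Snf5 CKO over control on the log2(FPKM + 1) scale (y) for partners of the Fanconi anaemia pathway (x), in 6 groups by role; purple circles are female, green diamonds are male, bars are 1 standard error, filled symbols have an adjusted p under 0.05 and dashed lines mark 2-fold. Mus81 is highest in both sexes (1.82 and 1.92), and the homologous recombination genes lie mostly under 0 in females.

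A list of 23 genes of S phase, when DNA is replicated, was examined beside the members. In females 12 of the 23 rose and 3 fell at an adjusted p under 0.05, with a median log2 fold change of 0.56, and in males 17 rose and 0 fell, with a median of 1.10 and 19 genes at an unadjusted p under 0.05. Of all tested genes, 26.9% rose and 34.6% fell in females, and 21.0% rose and 25.3% fell in males. The largest values were those of Ccne2 (-2.51), Tyms (2.49) and Mcm7 (2.39) in females and Rrm2 (3.25), Ccne1 (2.75) and Gins2 (2.22) in males. The summed level of the list was 1583 and 1569 FPKM in the female controls, 2407 and 2198 FPKM in female Snf5 CKO, 1137 and 1006 FPKM in the male controls and 2247 and 2039 FPKM in male Snf5 CKO. The summed level of the 10 Fanconi anaemia genes was 176 and 156 FPKM in the female controls and 171 and 141 FPKM in female Snf5 CKO, with overlapping groups. In males it was 195 and 148 FPKM in the controls and 170 and 131 FPKM in Snf5 CKO, again overlapping. Each Snf5 CKO sum was below that of the control library of the same number and sex, a difference that was not tested. In these bulk samples a smaller share of cells that express a gene and less RNA per cell cannot be told apart. The part of the S phase list, of the oocyte and prospermatogonium markers and of the Sertoli, pre-granulosa and Leydig markers in the values of the members was not tested.

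The tables give no counts, so the depth behind each value is unknown, and the authors' confidence bounds are the measure of precision for a single library. All 10 members had the status OK in all libraries. The lower bound was 0 for between 2 and 7 of the 10 members, depending on the library. The median distance from the value to its upper bound was between 88.8% and 112% of the value. Fancc, Fancf, Fanci and Fancl had a lower bound of 0 in every female library, and Fancf had it in every male library too. The smallest p that an exact permutation test (two-sided) allows with 2 against 2 libraries is 0.333, and every p given is therefore from limma fitted across all tested genes. Another scaling shifted the median of all tested genes by 0.15 (median-of-ratios) in both sexes and by -0.17 (common sum) in males on the log2 scale.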

How the data were processed

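RNA was harvested from germ cells sorted by Oct4-EGFP, cDNA was amplified with a SMART-Seq kit and libraries were made with Nextera XT, without strand information. The authors mapped the reads to mm10 and deposited FPKM values per locus, in one table per sex, so values of the sexes were only set side by side. The submitters' processing notes name TopHat2 2.2.1 and Cuffdiff 2.1.1, while the study's methods give other version numbers; the gene annotation used is not given in the sources used here. Named genes whose FPKM averaged 1 or more in the 4 libraries of a table were fitted with limma 3.58.1 in R 4.3.3 (lmFit and eBayes with trend on log2(FPKM + 1)), each sex alone, and p-values were adjusted over all tested genes (Benjamini-Hochberg). A 2-fold call needed a log2 fold change of size 1 or more and an adjusted p under 0.05.

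The labels name the raw files of replicate 1 in one style and those of replicate 2 in another in all 4 groups. In males the column headers also carry exp before the replicate number. The number was taken to mark a shared batch, whose kind neither the labels nor the headers state. Deviations of same-numbered libraries from their group means correlated across genes (Pearson's r of 0.50 for females and 0.61 for males, 2 pairs each). The fit with this block is given where it changed a call. Tried as 12 alternatives were no filter, a filter at 5 FPKM, 0.1 as pseudocount, libraries rescaled to a common sum over named genes, median-of-ratios rescaling, eBayes with no trend, a linear fit, the block and each of the 4 libraries left out.

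The members, partners, S phase genes, markers and motifs were chosen with earlier results of these data known. All members are named with their values. Partners past the 2-fold rule are named, up to 8 per direction and sex, and up to 3 genes of the S phase list; 1 partner is counted but not reported here by name or plotted. Of the other marker lists, pre-granulosa (4 of 4 tested higher in females, 0 of 1 changed in males, 0 at an unadjusted p under 0.05), Leydig (1 of 2 higher in females, 3 of 5 lower in males), stroma (1 of 1 lower in females, 2 of 3 lower in males), and blood and endothelium (2 of 3 higher in females, 0 of 4 changed in males, 1 at an unadjusted p under 0.05) are given by counts at an adjusted p under 0.05; the germ cell list had 5 higher and 1 lower of 8 in females and 1 higher and 3 lower in males. Data were simulated with 200 changed genes among 11529 (female) and 12279 (male). The female fit recovered 99.5% and the male fit 97.5% of changes of 2 on the log2 scale. Of changes of 1.5 they recovered 96.5% and 87.0%. Smaller changes, such as those of most members, were not simulated. The simulated noise was independent between libraries, without a shared replicate effect, and fewer genes were changed than were called in the real data. These shares are therefore no measure of power in the real data. Plots were made in Python 3.11.15 with matplotlib 3.10.9.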

Additional observations from a re-analysis of the deposited data

Results flagged for a closer look

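For Fancb, Fancd2 and Fanci the sign of the difference was opposite in the sexes, in that Snf5 CKO lay above control in both pairs of same-numbered libraries of one sex and below it in both pairs of the other. The log2 fold change in females minus that in males was 1.73 for Fancb (1.05 and -0.67), where the groups did not overlap in either sex. It was 1.43 for Fancd2 (0.35 and -1.08) and -1.19 for Fanci (-0.22 and 0.97), and for these the groups overlapped in females and the female values did not pass the test (limma, adjusted p = 0.276 and 0.443). The female value of Fanci was 0.079 without Snf5 CKO replicate 2, and that of Fancd2 was 0.049 without Snf5 CKO replicate 1. The tables of the sexes were normalized separately and each sex was fitted alone. The difference was not tested for any of the 3 genes.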

How the results depend on the processing

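Smarcb1 and the direction of the 7 calls of members (Fanca, Fancb, Fancc, Fance and Fancg in females, Fanca and Fancb in males) held under all 12 alternatives. The number of calls did not hold. The 2 filter settings, eBayes without trend, the linear fit and the replicate block leave the log2 fold change as it was. A direction could therefore turn only under the other alternatives. Where a value changed, the cause was not tested. Members lower by the 2-fold rule in females numbered 0, and 1 with a pseudocount of 0.1; higher, 1, and 0 in a fit on linear FPKM. In males 0 were lower, and 1 with libraries rescaled to a common sum or with the replicate block; 1 was higher, and 0 with the common sum or in the linear fit. Members at an adjusted p under 0.05 of any size and direction numbered 5 in females, and 3 without a filter, 2 with the common sum and 1 in the linear fit; in males 2, and 1 without a filter, 1 with the common sum, 0 in the linear fit and 9 with the replicate block. Partners lower in females numbered 4, and 2 with median-of-ratios rescaling; partners higher in males 10, and 5 with the common sum. With 1 library left out, which leaves an arm with a lone sample that is assumed to vary like the others, members lower ranged from 0 to 1 in both sexes, members higher from 0 to 1 in females and from 0 to 2 in males, members of any size at 3 in females in all 4 cases and from 1 to 2 in males, partners lower from 3 to 8 in females, partners higher from 1 to 2 in females and from 7 to 9 in males. Signs turned, all without a call, for Fancf (-0.14 without CKO replicate 2; -0.14 to 0.42 over the libraries left out), Fanci (-0.53 to 0.079, the latter without CKO replicate 2) and Fancl (-0.27 to 0.021, the latter without control replicate 1, and 0.028 with median-of-ratios rescaling) in females, and for Fancc (-0.16 with the common sum, and -0.12 to 0.15 over the libraries left out, under 0 without control replicate 2 or CKO replicate 1) and Fancm (-0.018 to 0.81, the former without CKO replicate 1) in males. The replicate block changed the calls given beside the members above and no other call of a member. The depth is unknown, so how far it limits these counts was not tested.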
